A study of Homo sapiens with 6 samples.

Results

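The table of these 6 neuroblastoma cell lines lists 19170 loci, and 2947 of them (15.4%) carry a dash in place of a gene name. Those 2947 unnamed loci were all taken as members, whatever their level, and are set against the 16223 loci with a gene name. Of the named loci, 2507 carry only clone-based or other noncoding names (the noncoding-named loci) and 13716 carry other names. Ribosome-depleted RNA of the cell lines was sequenced without poly-A selection, with 1 library per line. Kelly, BE(2)-C, SK-N-DZ and CHP134 are MYCN-amplified, and SY5Y and SK-N-AS are MYCN-non-amplified. None of the lines was treated. RPMI was the medium of Kelly and CHP134, and DMEM that of the others. Lines served as replicates within a group. The p-values therefore measure the spread between lines, and no line has a second culture or library.

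The values are normalized levels made by the authors whose unit the sources do not name. They were read as FPKM, fragments scaled by transcript length and library size, and 1 FPKM was the minimum for calling a locus expressed. They summed to between 777111 and 1.30512e+06 over all loci, and read depth is unknown. Every locus listed has values that add up to at least 1 over the 6 lines (smallest sum 1.00018 for unnamed and 1.00072 for named loci), so loci below that sum are outside all counts given here. Of 10 sympathetic neuron genes, 8 had at least 1 FPKM in all lines, and DBH and TH did not. Of 15 markers of other cell types, 6 had a locus here. The leukocyte gene PTPRC had 108 FPKM in SK-N-AS and at most 0.0658 FPKM in the other 5 lines, and the fibroblast gene DCN had 110 FPKM in SK-N-AS and 14.01 FPKM in SY5Y but at most 0.698 FPKM in the MYCN-amplified lines. Whether other cells gave part of the differences below was not tested.

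A locus without a name is a stretch of genome where the assembly of reads placed a transcript and no annotated gene was assigned. In RNA that was not selected for poly-A tails, such stretches can include transcripts of RNA polymerase III, extensions of genes, long noncoding RNAs, processed pseudogenes and remnants of ribosomal RNA. RNA polymerase III transcribes tRNA genes from promoters inside the gene, and the B box is the part of that promoter bound by the factor TFIIIC. Amplification of MYCN, which encodes the transcription factor N-Myc, copies a stretch of the short arm of chromosome 2 that differs in length between tumors and often takes neighbours with it.

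The sequences below show 2 kinds of unnamed locus to which the results return. Each was read from the hg19 genome. The first set holds letters of a B box, shown in capitals on the strand that has them. XLOC_040923 has only a broader form of the consensus searched below, and the other loci of the set have the consensus itself. XLOC_040923 (chr6:27198181-27198441, minus strand) and XLOC_040937 (chr6:27551132-27551303, minus strand) lie in the tRNA gene cluster of chromosome 6. XLOC_018607 (chr16:57334314-57334474, minus strand) and XLOC_018581 (chr16:22206914-22207112, minus strand) lie on chromosome 16.
XLOC_040923: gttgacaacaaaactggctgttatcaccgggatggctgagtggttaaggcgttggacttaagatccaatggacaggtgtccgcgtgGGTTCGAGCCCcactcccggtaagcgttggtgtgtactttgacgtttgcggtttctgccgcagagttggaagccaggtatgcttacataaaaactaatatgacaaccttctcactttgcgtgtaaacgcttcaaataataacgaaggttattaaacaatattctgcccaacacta
XLOC_040937: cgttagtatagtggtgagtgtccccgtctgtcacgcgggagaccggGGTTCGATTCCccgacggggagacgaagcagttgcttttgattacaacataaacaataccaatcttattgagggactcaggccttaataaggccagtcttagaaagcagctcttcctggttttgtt
XLOC_018607: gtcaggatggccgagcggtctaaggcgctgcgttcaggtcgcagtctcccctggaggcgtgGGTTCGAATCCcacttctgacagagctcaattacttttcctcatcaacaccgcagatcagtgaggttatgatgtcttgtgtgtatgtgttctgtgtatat
XLOC_018581: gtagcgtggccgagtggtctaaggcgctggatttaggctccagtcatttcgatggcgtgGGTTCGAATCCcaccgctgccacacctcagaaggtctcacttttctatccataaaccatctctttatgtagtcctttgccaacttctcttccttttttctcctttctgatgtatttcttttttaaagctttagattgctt

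The second set resembles ribosomal DNA and holds the highest unnamed locus and a locus called between the groups. XLOC_038301 (chr5:71146740-71146943) and XLOC_018600 (chr16:33963859-33964016) are shown on the plus strand, and capitals mark bases that differ from the unplaced contig that carries ribosomal RNA genes.
XLOC_038301: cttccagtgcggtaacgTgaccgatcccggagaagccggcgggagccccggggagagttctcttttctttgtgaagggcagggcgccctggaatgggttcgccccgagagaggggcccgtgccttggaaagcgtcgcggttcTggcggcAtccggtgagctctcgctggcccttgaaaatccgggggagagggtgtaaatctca
XLOC_018600: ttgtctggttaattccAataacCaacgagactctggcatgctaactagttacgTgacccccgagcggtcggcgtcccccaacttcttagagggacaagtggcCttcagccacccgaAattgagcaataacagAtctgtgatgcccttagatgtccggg

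Unnamed loci were short. Their median span was 1213 bp (range 117 to 918553 bp), against 52129 bp for named loci and 36037 bp for noncoding-named loci. Spans of at most 1000 bp made up 39.3% of unnamed and 2.91% of named loci. A span is that of the whole assembled block, not of a transcript, since 225 unnamed loci shared theirs with a named locus and up to 30 unnamed loci shared a single one. The longest, XLOC_043480 (chr7:11232993-12151545), had such a shared block of 918553 bp across THSD7A, a gene of a thrombospondin-domain membrane protein. The next 4, XLOC_027650, XLOC_027653, XLOC_027654 and XLOC_027656, shared chr2:13676761-14541087. The shortest, XLOC_013177 (chr13:104881021-104881137), spanned 117 bp and had 61.7 FPKM in SK-N-AS, 3.25 FPKM in BE(2)-C and 0 in the other lines.

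Identifiers ran along each chromosome in 3 runs of rising position, on 24 of 25 chromosomes. Among named loci of a single gene in GENCODE 44, 97.3% in run 1 lay on the plus strand and 97.6% in run 2 on the minus strand. Run 3 held 2623 unnamed loci (89.0%) and 0 named loci. Unnamed loci of run 3 had a median span of 1101 bp, against 6541 bp for the 161 in run 1 and 7697 bp for the 163 in run 2. The strand of loci in run 3 is thus unknown here, and the library kit does not mark strand.

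Chromosome 6 had the highest share of unnamed loci among chromosomes, 238 of its loci (22.5%), followed by chromosome 21 (19.5%), chromosome 2 (19.3%) and chromosome 10 (19.3%). Chromosome 15 had the lowest share of the autosomes (9.22%), and the mitochondrial genome had 0. Chromosome 6 also had the highest share of unnamed loci expressed in all 6 lines among the autosomes (18.5%, against 4.19% on chromosome 1). No test was made of these shares.

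Of the unnamed loci, 1248 (42.3%) overlapped a gene of GENCODE 44, an annotation more recent than the gene names of the table, by at least 1 base on either strand. A protein-coding gene was overlapped by 409 (13.9%), a long noncoding RNA gene and no protein-coding gene by 765 (25.96%) and a pseudogene but neither of these by 45 (1.53%). An annotated exon was touched by 941 (31.9%), and 1699 (57.7%) overlapped no annotated gene. Most lay close to named loci: 1530 (51.9%) were within 5000 bp of one without touching it, and 378 were more than 50 kb away. Of the 1530, 582 were downstream and 948 upstream of the named neighbour. Loci far from named ones were more often expressed: 70.4% of the 378 reached 1 FPKM in at least 1 line, against 32.1% of the 1530. Of those that did, 61.7% of the far and 54.8% of the near loci reached it in exactly 1 line. These shares were not tested.

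Unnamed loci were expressed in few lines. At 1 FPKM or more, 1663 (56.4%) reached the minimum in 0 lines, 699 (23.7%) in 1 line and 164 (5.56%) in all 6. Named loci were most often expressed in all lines, with 11.3% in 0 lines, 9.34% in 1 line and 58.5% in all 6. Noncoding-named loci were in between, with 36.8% in 0 lines and 21.3% in all 6. Of loci expressed in any line, 54.4% of the unnamed and 10.5% of the named were expressed in exactly 1, and the noncoding-named share was 27.5%.

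**Figure D1:**
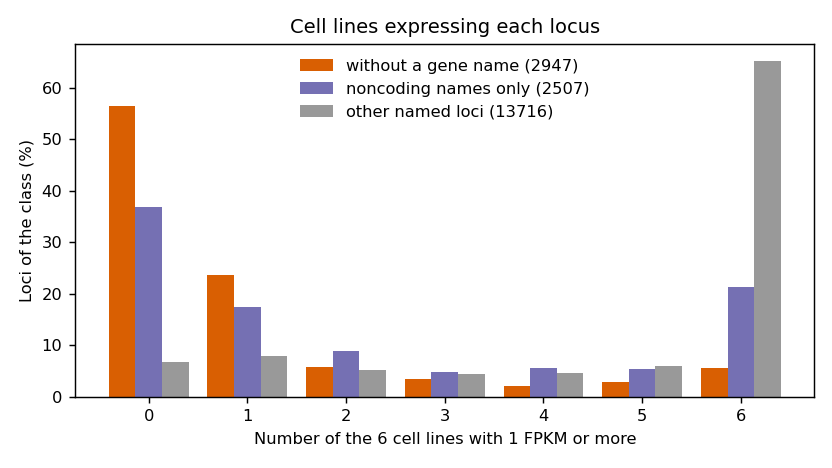
Percentage of loci (y axis) by the number of cell lines with 1 FPKM or more (x axis), for unnamed loci, noncoding-named loci and other named loci, 1 bar each. Most unnamed loci (56.4%) stand at 0 lines and 5.56% at 6 lines, while 65.2% of the other named loci stand at 6.

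The share of unnamed loci at 1 FPKM or more was 16.5% in Kelly, 22.3% in BE(2)-C, 18.2% in SK-N-DZ and 15.6% in CHP134, against 13.4% in SY5Y and 15.8% in SK-N-AS. BE(2)-C was highest and SY5Y lowest, and the groups overlapped. The mean share was 18.2% ± 2.97 (SD, n = 4) in MYCN-amplified lines and 14.6% (n = 2) in non-amplified lines, a difference of 3.55 percentage points (two-sided exact permutation test, p = 0.267, where 0.0667 is the smallest that this design can give). For named loci BE(2)-C had the lowest share (70.0%) and SY5Y the highest (74.7%), so the lines stood in another order. In all 6 lines the unnamed share was lower than the named share, by 55.2 percentage points on average (two-sided exact sign-flip test over 6 lines, p = 0.03125, the smallest possible). The unnamed minus noncoding-named difference was -20.7 points, and against named loci weighted to the same span classes the difference was -42.1 points, both with p = 0.03125 in that exact test. The median of unnamed loci in a line ranged from 0.221 FPKM in CHP134 to 0.342 FPKM in SK-N-DZ, against 4.08 to 5.39 FPKM for named loci. The difference averaged -2.75 on the log2(FPKM + 0.5) scale (exact sign-flip test, p = 0.03125). It was smaller against noncoding-named loci (-0.44) and within the same span classes (-1.72), with the same p in the exact test.

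**Figure D2:**
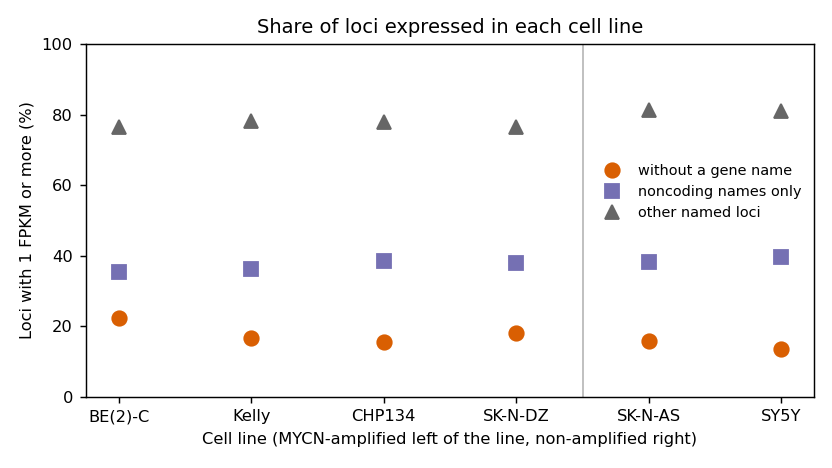
Share of loci with 1 FPKM or more (y axis, %) in each cell line (x axis, MYCN-amplified lines to the left), for unnamed loci (circles), noncoding-named loci (squares) and other named loci (triangles). Unnamed loci lie between 13.4% and 22.3%, below both named classes in every line.

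Unnamed loci under 500 bp had the highest levels, and above that span the level did not fall steadily. Of the 459 unnamed loci under 500 bp, 97.6% reached 1 FPKM in some line and 23.1% in all 6, with a median level of 1.77 FPKM. Of the 891 loci from 1000 bp to under 2000 bp, 20.3% reached it in some line and 1.35% in all 6, with a median of 0.276 FPKM. From 5000 bp to under 10000 bp, 50.9% reached it in some line, with a median of 0.408 FPKM. Above 10000 bp, 52.9% reached it in some line and 3.12% in all 6, with a median of 0.300 FPKM. FPKM divides by length, and how short loci were scaled is not given, so the part of this scaling in the levels was not tested.

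Unnamed loci held 4.56% of the summed FPKM in Kelly, 8.38% in BE(2)-C, 4.6% in SK-N-DZ and 2.84% in CHP134, against 3.3% in SY5Y and 3.67% in SK-N-AS. The means were 5.09% ± 2.34 (SD, n = 4) and 3.49% (n = 2), and the difference was within the spread between lines (exact permutation test, p = 0.467). XLOC_038301 and XLOC_011880 alone held 6.77% of the sum in BE(2)-C and from 1.93% to 3.81% in the other 5 lines, so the remaining unnamed loci held 1.61% in BE(2)-C and from 0.789% to 1.53% elsewhere.

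The highest unnamed locus was XLOC_038301, with 14649 FPKM in Kelly, 52310.5 in BE(2)-C, 27754 in SK-N-DZ and 9959 in CHP134, against 12492 FPKM in SY5Y and 18458 in SK-N-AS. It lies on chromosome 5 outside annotated genes, 98.5% of it aligned to the contig of ribosomal RNA genes, and the aligned bases were 98.5% identical, as the capitals in its sequence show. XLOC_011880 (chr12:127650471-127650988), whose span a microRNA-type named locus shares, had from 1912 to 18811 FPKM and aligned to the same contig over 40.7% of its length at 96.2% identity. The libraries were depleted of ribosomal RNA, and how much of it remained in each is not given, so its part in these 2 levels was not tested. Next came XLOC_004531 (chr1:91515162-91515293), with 797 to 5873 FPKM and no overlapping gene. XLOC_035738 (chr4:16944264-16944382) was highest in Kelly, with 1128 FPKM, and lowest in BE(2)-C, with 98.2 FPKM.

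**Figure D3:**
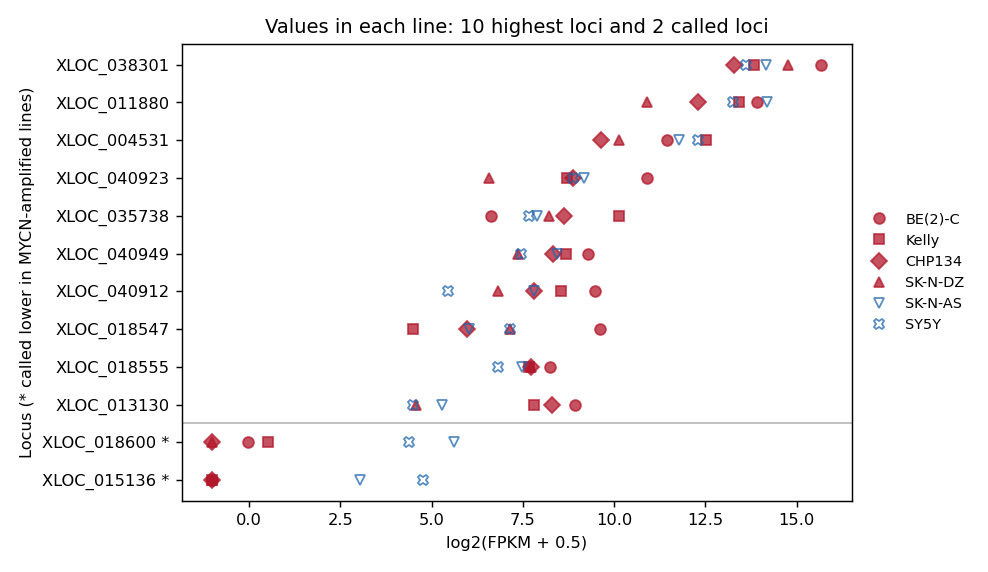
Level of 12 unnamed loci (rows) on the log2(FPKM + 0.5) scale (x axis) in each cell line (symbols, MYCN-amplified filled and non-amplified open). The 10 highest loci lie above the grey line, and the groups overlap in all of them but XLOC_018555. The 2 loci under the line were called lower in MYCN-amplified lines and show all 4 filled symbols left of the open ones. The other called locus, XLOC_050542, is not drawn.

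Letters of the tRNA B box were more frequent in unnamed loci expressed in all lines than in the rest. The 11-letter consensus, given by the capitals of XLOC_040937 with the eighth letter free, was searched on both strands in the 2457 unnamed loci of at most 5000 bp, and in 4875 windows of the same lengths 50 kb to either side. It was present in 64 loci (2.60%) and in 10 windows (0.205%). Among the 151 searched loci expressed in all 6 lines 32 (21.2%) held it, and among the other 2306 loci 32 (1.39%) did. These shares were not tested, and loci with the consensus were also shorter (median span 374 bp, against 1050 bp without it). A broader form with the sixth, eighth and ninth letters free, chosen after the data were seen and including the first, was present in 202 loci (8.22%) and 158 windows (3.24%). Between their protein-coding neighbours in RefSeq, 54 of 59 B box loci (91.5%) had at least 1 annotated tRNA gene, against 170 of 2370 other loci (7.17%). RefSeq was used for names and gene order only. A match describes the letters in the window and names no factor.

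Of these loci, 32 of 64 lay between 26 and 29 Mb of chromosome 6, the region with the large tRNA gene cluster among the histone genes. That stretch had 95 unnamed loci, and its 3 bins of 1 Mb held 26, 37 and 32 of them. The median level of the 64 B box loci was 2.79 FPKM in Kelly, 7.95 in BE(2)-C, 2.19 in SK-N-DZ and 2.17 in CHP134, against 1.76 FPKM in SY5Y and 4.36 in SK-N-AS. BE(2)-C was above every other line and held the highest value for 41 of the 64 loci, and SK-N-AS for 12. The group means of these medians, 3.78 ± 2.80 FPKM (SD, n = 4) in MYCN-amplified and 3.06 FPKM (n = 2) in non-amplified lines, differed by less than the spread between lines (exact permutation test, p = 0.8). Of the 53 tested with limma, 30 had a positive fold change and 0 were called (smallest adjusted p 0.195). Without BE(2)-C, the median log2 fold change turned to -0.29 over 49 loci, against 0.24 with it.

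**Figure D4:**
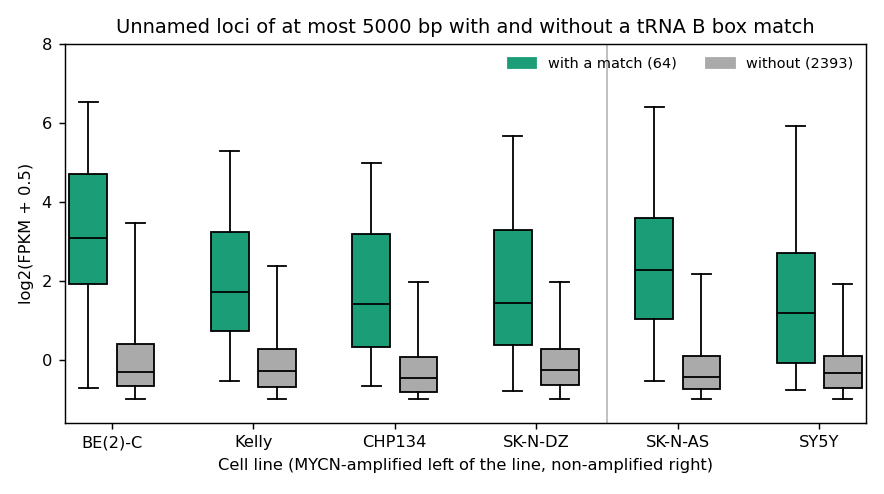
Level on the log2(FPKM + 0.5) scale (y axis) of unnamed loci of at most 5000 bp with the B box consensus (green) and without it (grey) in each cell line (x axis). Boxes span the quartiles with the median as a line, and whiskers reach the 5th and 95th percentiles. The green medians lie above the grey ones in all 6 lines, and the green box of BE(2)-C lies highest.

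XLOC_040923, printed above with the broader form, had 419 FPKM in Kelly, 1914 in BE(2)-C, 95.4 in SK-N-DZ and 465 in CHP134, against 469.6 FPKM in SY5Y and 573 in SK-N-AS. Its RefSeq interval between H2AC12 and PRSS16 holds 10 tRNA genes. XLOC_018607 lies between PLLP and CCL22, where RefSeq places TRL-CAG2-1 and TRL-CAG2-2, genes of leucine tRNAs, and it had 88.2 FPKM in Kelly, 404 in BE(2)-C, 150.4 in SK-N-DZ and 96.4 in CHP134, against 78.9 FPKM in SY5Y and 100.0 in SK-N-AS. XLOC_018581 lies between SDR42E2 and EEF2K, where RefSeq places TRL-TAG3-1 alone, and it had 27.2 to 91.8 FPKM. The B box locus XLOC_018555 (chr16:3202889-3203210) varied least among the 10 highest. It had 204 FPKM in Kelly, 301 in BE(2)-C, 211 in SK-N-DZ and 210.2 in CHP134, against 112 FPKM in SY5Y and 177 in SK-N-AS. All MYCN-amplified lines were above both non-amplified lines, but the locus was not called (log2 fold change 0.70, limma adjusted p = 0.352).

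Another 128 loci of at most 5000 bp matched a protein-coding transcript at 95% identity or more over at least 80% of their length. Loci whose 31-base words had a median of more than 20 copies were left out. A gene that the locus itself overlaps was not left out, and XLOC_025044, which overlaps POU3F3, matched POU3F3. Of the 128, 29 were expressed in all 6 lines, and 18 overlapped a pseudogene and no protein-coding or long noncoding RNA gene. XLOC_027764 (chr2:26251036-26251250), on the pseudogene TRMT112P6, was 98.6% identical to TRMT112, a methyltransferase cofactor. It had 195 FPKM in Kelly, 98.7 in BE(2)-C, 158 in SK-N-DZ and 151 in CHP134, against 216 FPKM in SY5Y and 275 in SK-N-AS. XLOC_031404 (chr3:72933557-72933712), on LAPTM4BP2, was 98.1% identical to LAPTM4B, a lysosomal membrane protein gene, and had 66.5 to 175 FPKM. Where a locus is a copy of another gene, reads of both may be shared, so these levels are uncertain.

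MYCN-amplified lines were compared with non-amplified lines in a limma fit across all loci with 1 FPKM or more in at least 2 lines, which kept 585 unnamed loci and left out 2362. A call needed a log2 fold change of more than 1 in size and an adjusted p (Benjamini-Hochberg) under 0.05. By this rule 3 of the 585 (0.513%) were called, against 0.461% of all 13455 loci tested. All 3 were lower in MYCN-amplified lines, where 0.334% of all loci were called lower and 0.126% higher. They reached 1 FPKM in SY5Y and SK-N-AS alone and so passed the filter only through the group where they were high. At an unadjusted p under 0.05 in limma, 40 unnamed loci were higher and 22 lower (10.6%, background 14.5%). The median log2 fold change was 0.26 over unnamed loci and -0.08 over all loci. Without BE(2)-C these medians were 0.06 and -0.06. With values rescaled to the same sum they moved to 0.58 and 0.30, and 75.6% of unnamed and 66.6% of all fold changes were positive, instead of 59.7% and 45.1%. The groups did not overlap for 113 unnamed loci (19.3%), against 26.6% of all loci tested. By direction, 82 (14.02%) were higher in MYCN-amplified lines, against 10.7% of all loci, and 31 (5.3%) were lower, against 15.9%. Of the 585 loci, 172 reached 1 FPKM in exactly 2 lines, and 4 of the 6 lines are MYCN-amplified. The filter can thus let in more loci that are high in MYCN-amplified lines. Its part in the shares by direction was not tested.

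XLOC_018600 (chr16:33963859-33964016) had 0.923 FPKM in Kelly, 0.482 in BE(2)-C, 0 in SK-N-DZ and 0 in CHP134, against 20.5 FPKM in SY5Y and 48.2 in SK-N-AS. It lies outside annotated genes and aligned to the contig of ribosomal RNA genes over its whole length at 96.2% identity, with 6 differing bases. Its log2 fold change was -5.38 (SE 0.605, limma adjusted p = 0.0198). How much ribosomal RNA remained in each library is not given, so its part in this difference was not tested. XLOC_015136 (chr14:107096717-107096886) was listed at 0 in all 4 MYCN-amplified lines, against 26.5 FPKM in SY5Y and 7.80 in SK-N-AS, with a limma adjusted p of 0.0198. It lies at the immunoglobulin heavy chain locus, where the nearest named locus is IGHV3-47, and touches no annotated gene. XLOC_050542 (chrY:13241600-13258858) lies on the pseudogene CDRT15P10. It had 0.631 FPKM in BE(2)-C and 0 in the other MYCN-amplified lines, against 22.2 FPKM in SY5Y and 7.46 in SK-N-AS. Its log2 fold change was -4.45 (limma adjusted p = 0.0417). Whether each line carries this chromosome was not tested. Nor was it tested whether reads of similar sequences elsewhere were placed here, since only loci of at most 5000 bp were searched for copies. Without SY5Y or SK-N-AS the 3 loci no longer passed the filter and were not tested. Without CHP134 or SK-N-DZ none of the 3 was called (limma adjusted p 0.0581 to 0.114), although the log2 fold changes stayed at -5.17 for XLOC_018600 and -4.36 for XLOC_050542. Without Kelly, XLOC_018600 alone was called.

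Among loci with the smallest p that were not called, XLOC_000550 (chr1:41898669-41930645) was listed at 0 in all 4 MYCN-amplified lines, against 2.59 FPKM in SY5Y and 4.03 in SK-N-AS (limma adjusted p = 0.0611). The smallest p among loci higher in MYCN-amplified lines was that of XLOC_016692 (chr15:75051903-75052988), between CYP1A2 and CSK, with 9.78 FPKM in Kelly, 2.74 in BE(2)-C, 3.596 in SK-N-DZ and 3.45 in CHP134, against 0.301 FPKM in SY5Y and 0.236 in SK-N-AS (log2 fold change 2.65, limma adjusted p = 0.118). XLOC_038885 (chr6:33811362-33816491) had 15.2 FPKM in Kelly, 16.2 in BE(2)-C, 1.11 in SK-N-DZ and 12.8 in CHP134, against 0 FPKM in SY5Y and 0.477 in SK-N-AS. XLOC_000550 passed the filter through the non-amplified lines alone. XLOC_016692 and XLOC_038885 passed it through MYCN-amplified lines alone. The directions of these loci were thus set by the filter. Without BE(2)-C, 2 further loci of the 502 unnamed loci tested were called higher, named here after their values were seen. The share of all loci called higher in that fit is not given here. Both loci were at 0 in BE(2)-C, the line left out. XLOC_041087 (chr6:117984065-117984232) had 40.8 FPKM in Kelly, 0 in BE(2)-C, 43.2 in SK-N-DZ and 57.4 in CHP134, against 4.72 FPKM in SY5Y and 5.56 in SK-N-AS. XLOC_033389 (chr3:32938581-32939409) had 9.15 FPKM in Kelly, 0 in BE(2)-C, 5.91 in SK-N-DZ and 5.10 in CHP134, against 0.0364 FPKM in SY5Y and 0 in SK-N-AS. XLOC_033389 passed the filter through MYCN-amplified lines alone, so its direction was set by the filter.

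Around MYCN, unnamed loci were expressed in MYCN-amplified lines only, in sets that differed in part between the lines. The MYCN locus spans chr2:16060521-16087129, and 31 unnamed loci lay within 1 Mb of it. All 31 were below 1 FPKM in both SK-N-AS and SY5Y (highest value 0.110 FPKM), and 27 reached 1 FPKM in at least 1 MYCN-amplified line. Over all unnamed loci, 80.01% were below 1 FPKM in both non-amplified lines and 38.0% reached it in a MYCN-amplified line, against 87.1% near MYCN. A locus is listed only where its values add up to at least 1 over the 6 lines. With at most 0.110 FPKM in either non-amplified line, all 31 were listed through MYCN-amplified lines, so their direction was set by the listing. These shares were not tested. Of the 27, 16 were expressed in 1 amplified line, 7 in 2, 4 in 3 and 0 in all 4. Those of 1 line were 4 in Kelly, 6 in BE(2)-C, 6 in CHP134 and 0 in SK-N-DZ. The 11 that entered the fit did so through MYCN-amplified lines alone, so their direction was set by the filter, and 0 were called by limma (smallest adjusted p 0.236). The 4 amplified lines differed among themselves, so that their spread was wide.

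Within 1 Mb, the expressed loci of BE(2)-C and CHP134 fell on different sides of MYCN. BE(2)-C expressed 9, all at higher coordinates, from 31.3 to 402.7 kb past the start of the MYCN locus. CHP134 expressed 11, all at lower coordinates, with the farthest at -950 kb. Kelly expressed 8 at lower and 5 at higher coordinates, and SK-N-DZ 7 and 2. BE(2)-C and CHP134 had 0 expressed loci in common within 1 Mb, while Kelly and SK-N-DZ shared 7. The one-sided placing in BE(2)-C depended on the window. Within 5 Mb it expressed 11 loci at lower and 11 at higher coordinates, while CHP134 expressed 20 and 1. The 11 lower loci of BE(2)-C all lay in the bin from 13 Mb of chromosome 2, where 15 unnamed loci had 7 spans. Of these, XLOC_027650, XLOC_027653, XLOC_027654 and XLOC_027656 shared 1 span and had 1.05 to 1.34 FPKM in BE(2)-C.

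**Figure D5:**
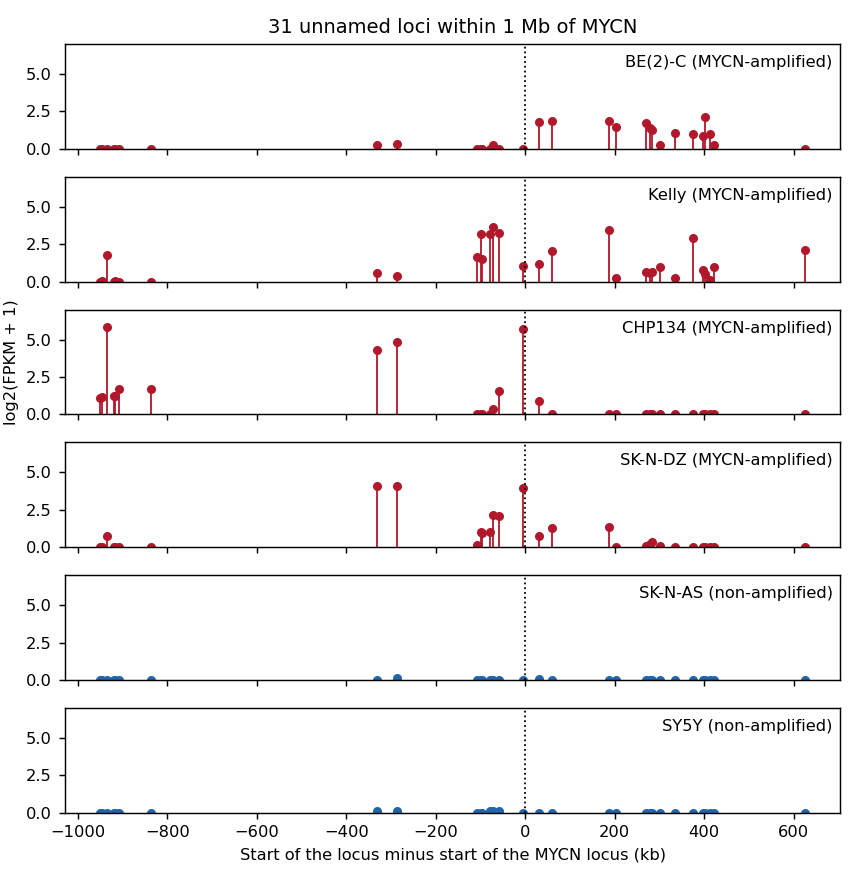
Level of the 31 unnamed loci within 1 Mb of MYCN on the log2(FPKM + 1) scale (y axis) by their start relative to the start of the MYCN locus (x axis, kb), with 1 panel per cell line and the dotted line at MYCN. Signal lies right of the line in BE(2)-C, left of it in CHP134 and on both sides in Kelly and SK-N-DZ, and SK-N-AS and SY5Y are near 0 throughout.

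XLOC_026062 (chr2:15126811-15138355), on a long noncoding RNA gene of GENCODE 44, had 2.48 FPKM in Kelly, 0 in BE(2)-C, 0.701 in SK-N-DZ and 57.0 in CHP134, against 0 FPKM in SY5Y and 0 in SK-N-AS. XLOC_027724 (chr2:15728251-15730305) and XLOC_027725 (chr2:15774566-15776507) flank DDX1, an RNA helicase gene often amplified along with MYCN. XLOC_027724 had 0.490 FPKM in Kelly, 0.184 in BE(2)-C, 15.8 in SK-N-DZ and 18.8 in CHP134, against 0.103 FPKM in SY5Y and 0 in SK-N-AS. XLOC_027725 had 0.271 FPKM in Kelly, 0.262 in BE(2)-C, 16.3 in SK-N-DZ and 27.99 in CHP134, against 0.0858 FPKM in SY5Y and 0.101 in SK-N-AS. DDX1 itself had 110.4 FPKM in Kelly, 95.1 in BE(2)-C, 3295 in SK-N-DZ and 10561 in CHP134, against 48.5 FPKM in SY5Y and 43.3 in SK-N-AS, so the same lines were high. MYCN had 184 to 774 FPKM in the amplified lines, against 0.921 FPKM in SY5Y and 0.208 in SK-N-AS. XLOC_027734 had 1.07 FPKM in Kelly, 0 in BE(2)-C, 14.3 in SK-N-DZ and 51.5 in CHP134, against 0 FPKM in SY5Y and 0 in SK-N-AS.

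Kelly had high loci on both sides of MYCN. XLOC_027732 (chr2:15988623-15989013), before MYCN, was highest in Kelly with 11.3 FPKM. XLOC_027740 (chr2:16248342-16248607), past it, had 9.75 FPKM in Kelly, 2.54 in BE(2)-C, 1.55 in SK-N-DZ and 0 in CHP134, against 0 FPKM in SY5Y and 0 in SK-N-AS. XLOC_027754 (chr2:16462232-16463253) had 3.43 FPKM in BE(2)-C and at most 0.428 in the other lines, and XLOC_027758 (chr2:16686127-16690061) had 3.42 FPKM in Kelly and at most 0.0206 in the others. DNA copy number was not measured here, so copy number and transcription per copy cannot be told apart. Around lncNB1 (chr6:3182978-3195990), the long noncoding RNA that the study describes, only XLOC_040861 (chr6:4011981-4012960) lay within 1 Mb, with at most 0.379 FPKM in any line.

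Unnamed loci also crowded in other stretches of the genome. Counting in bins of 1 Mb, 26 bins held at least 10 unnamed loci and 451 loci in all, and in 9 of them a single line had over 60% of the expressed values. Only 5 of the 9 held 9 or more expressed values, and the other 4 held 1 to 6. These bins were chosen by position and described after their values were seen. Several loci of a bin can share 1 assembled block. The 30 loci from 25 Mb of chromosome 17 had 1 span, as had the 26 from 68 Mb of chromosome 18. The 21 from 35 Mb of chromosome 14 had 3 spans, while the 37 from 27 Mb of chromosome 6 had 37. On chromosome 17, 30 loci of the block chr17:25416501-25505047 were at 1 FPKM or more in SK-N-DZ for 26 of them, in Kelly and SY5Y for 1 each and in the other lines for 0. On chromosome 10, 21 loci of chr10:109038060-109616603 reached it in SK-N-DZ for 15 and in no other line, and the bin had 1 named locus. On chromosome 5, 10 of 17 loci of chr5:120500378-120720121 reached it in CHP134 and 1 in SK-N-DZ. In the bin from 13 Mb of chromosome 2, which lies within 5 Mb of MYCN, 11 of 15 loci reached it in BE(2)-C. In that from 124 Mb of chromosome 4, 9 of 11 reached it in SK-N-AS only, among them XLOC_035340 (chr4:124939707-124976203), with 38.5 FPKM in SK-N-AS and at most 0.0264 in the other lines.

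Of the 699 loci expressed in exactly 1 line, 89 were expressed in Kelly, 212 in BE(2)-C, 137 in SK-N-DZ and 114 in CHP134, against 48 in SY5Y and 99 in SK-N-AS. The counts averaged 138 ± 53.1 (SD, n = 4) in MYCN-amplified lines and 73.5 (n = 2) in non-amplified lines, a difference within the spread (exact permutation test, p = 0.267). The highest of them, XLOC_027905, had 230.5 FPKM in SK-N-AS and at most 0.235 in the other lines. In BE(2)-C the leading loci were XLOC_040960 (chr6:28601328-28601924) with 16.7 FPKM and XLOC_041066 (chr6:108515294-108515795) with 12.5 FPKM. In Kelly they were XLOC_027849 (chr2:92316079-92316307) with 12.4 FPKM and XLOC_033546 (chr3:197210559-197211456) with 11.8 FPKM. In CHP134, XLOC_041083 (chr6:117069487-117070786), 743 bp past FAM162B, had 8.03 FPKM. In SK-N-DZ, XLOC_030821 (chr22:49543200-49548482) had 6.43 FPKM. In SY5Y, XLOC_025044 (chr2:105470358-105471749), which overlaps POU3F3 of GENCODE 44, a neural transcription factor gene, had 6.07 FPKM.

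At the other end, 71 unnamed loci had at least 5 FPKM in every line. The one with the smallest spread was XLOC_040962 (chr6:28611217-28611465), in the tRNA cluster of chromosome 6 and with the broader B box pattern, at 32.8 FPKM in Kelly, 44.4 in BE(2)-C, 32.2 in SK-N-DZ and 41.9 in CHP134, against 35.6 FPKM in SY5Y and 33.6 in SK-N-AS. XLOC_040946 (chr6:27655641-27656332) of the same cluster had 98.9 to 143 FPKM. XLOC_021047 (chr17:60142791-60143353), 148 bp upstream of the Mediator gene MED13, had 11.9 to 20.2 FPKM. XLOC_020997 (chr17:38278153-38278496) overlapped an exon of MSL1, a gene of a histone acetyltransferase complex, and had 5.10 to 8.53 FPKM. XLOC_037431 shared the block of ERBB2IP (chr5:65221543-65378377), whose product binds the receptor ERBB2, and had 6.04 to 9.29 FPKM.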

How the data were processed

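The measurements are RNA sequencing values of 6 cell lines, 1 library each, grouped by MYCN status from the study's methods. The authors depleted ribosomal RNA, used STAR for alignment to hg19, and their methods describe counting on Gencode and a test in edgeR. The deposited table instead holds assembled loci with values that were read as FPKM normalized by the authors, and the step that assembled the loci is not described. Its starts are counted from 0 (2775 of 10080 matched genes start 1 base later in GENCODE 44, and 126 at the same base), so starts are printed 1 higher. 1 emptied line was skipped, and 0 value columns were left unused. Depth is unknown, so no counting interval is given.

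Loci with at least 1 FPKM in 2 lines entered a fit of log2(FPKM + 0.5), named and unnamed together and without covariates, in limma (version 3.58.1, R 4.3.3, eBayes with a trend). The pseudocount makes fold changes of low loci too small. Shares and medians per line were compared by exact sign-flip or permutation tests. Overlaps used GENCODE 44 on the same build, and alignments blastn 2.17.0. Repeat content was counted in words of 31 bases. Calculations ran in Python 3.11.15 and figures in matplotlib 3.10.9. Members, lists and tests were chosen with earlier results of these data known. Loci were named by rule: the 10 highest means, the 5 longest and 5 shortest, those called or with the smallest p, the 2 highest expressed in 1 line only, the 5 with the smallest spread at 5 FPKM or more, and those within 1 Mb of MYCN or lncNB1. Loci shown as examples of a sequence class, and others outside this rule, were chosen after their values were seen. Pseudocount, filter, scaling, variance model, minimum, windows and leaving out each line were varied. The sequences of some loci are not reported here.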

Additional observations from a re-analysis of the deposited data

Results flagged for a closer look

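Values of the 4 MYCN-amplified lines were examined for a line far from the other 3, in 28 sets. There were 5 such sets. By chance the rule flags about 1 in 20 where values are normally distributed, which these FPKM values were not shown to be. Gaps were measured in FPKM, and gaps on the log2 scale are not given here. The median of the B box loci was 7.95 FPKM in BE(2)-C, and the next line had 2.79. XLOC_004638 had 17.96 FPKM in BE(2)-C and 3.13 in the next. XLOC_018547 had 788.4 FPKM in BE(2)-C and 141.0 in the next. XLOC_018555 had 301.0 FPKM in BE(2)-C and 210.7 in the next. XLOC_016692 had 9.78 FPKM in Kelly and 3.596 in the next. On the FPKM scale BE(2)-C was thus the outlying line in 4 of the 5 sets. The sets share loci and libraries and are not independent.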

How the results depend on the processing

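The 3 calls lower in MYCN-amplified lines became 0 with a pseudocount of 0.1, with a minimum of 5 FPKM in at least 2 lines and in the 4 lines grown in DMEM. The log2 fold changes then stayed large, at -6.83, -5.38 and -5.51 for XLOC_018600 and -6.30, -4.45 and -4.16 for XLOC_050542. Leaving out 1 MYCN-amplified line gave 0 to 4 lower and 0 to 2 higher calls among unnamed loci. The share of all loci called in these fits is not given here. The unnamed minus named share kept its sign, at -56.7 to -54.0 percentage points with 1 line left out, and was -17.0 points at a minimum of 0.1 FPKM, -46.9 at 0.5 and -44.0 at 5. The median difference was -2.81 to -2.70 with 1 line left out, -1.57 with a pseudocount of 2 and -3.68 with 0.1. With 5 lines the exact test cannot go below p = 0.0625, so both lost their call there by construction. The share of unnamed loci expressed in 0 lines was 0% at a minimum of 0.1 FPKM, 16.8% at 0.5, 88.7% at 5 and 52.9% with equal sums, and 58.1 to 63.6% with 1 line left out. The share in 1 line was 5.94%, 40.5%, 5.23% and 26.1% in the same order, and 19.3 to 23.6% with 1 line left out. The share in all lines was 36.3%, 8.92% and 2.41% at these 3 minimums. The 0% in 0 lines at 0.1 FPKM was fixed by the listing, since the values of every locus add up to at least 1 over the 6 lines. They added up to less than 2 for 49.7% of unnamed and 9.35% of named loci. Among loci at 1 FPKM or more in some line, the median span was 742.5 bp and 9.66% lay on chromosome 6, against 1213 bp and 8.08% of all unnamed loci. MYCN had 59 unnamed loci within 5 Mb and 11 within 0.2 Mb, and lncNB1 had 4 and 0. Overlap with annotation was 36.1% with the stricter cover rule, under which 0.5 or more of the locus lies in a gene, 13.9% for protein-coding genes and 78.5% within 5 kb. No paired analysis was possible because the labels give no replicate numbers and each line belongs to 1 group.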
